A study of Mus musculus with 29 samples.

Results

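The late phase of adipocyte maturation was examined in 3T3-L1 cells that had been exposed to the histone demethylase inhibitor KDM5-C70 (C70) before differentiation and then matured without it. 3T3-L1 cells are mouse fibroblasts that can be turned into fat cells of the white type by hormones. All 4 RNA-seq libraries of C70-treated cells at day 7 were compared with all 4 libraries of C70-treated cells at day 2. These 8 libraries are taken from 29 in the series, and all 11959 genes of the count table entered the comparison. Cells received 10 µM C70 or the DMSO vehicle at confluence, day -2, and the study's results place the treatment at days -2 to 0. From day 0 to day 2 both groups were in differentiation medium with dexamethasone, insulin, isobutylmethylxanthine and a PPARγ agonist, and afterwards in maintenance medium with insulin and dexamethasone. The day 2 to day 7 change therefore includes the change of medium, and the effects of time and medium cannot be told apart. Vehicle-treated cells of the same days, with 3 libraries at day 2 and 4 at day 7, showed where the C70-treated cells differed. All libraries come from one cell line, and nothing in the labels says that replicates were separate cultures, so p-values measure the spread between these samples, which may be technical. The question was which gene programs caught up with vehicle once the inhibitor was gone.

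White adipogenesis in these cells begins with a round of cell division after the hormone mix is added, known as mitotic clonal expansion. The transcription factors PPARγ and C/EBPα then switch on genes for fatty acid synthesis, lipid storage, insulin-stimulated glucose uptake and secreted adipokines, while genes of the fibroblast-like preadipocyte and its collagen matrix decline. KDM5 enzymes remove methyl groups from lysine 4 of histone H3, a mark found at the promoters of active genes.

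Counts per library ranged from 16320275 to 19178452 in C70 cells at day 2, from 18469097 to 20842154 in C70 cells at day 7, from 19073684 to 23768093 in vehicle cells at day 2 and from 18781225 to 21433580 in vehicle cells at day 7. Expression is given as CPM, the count relative to library size after scaling by the trimmed mean of M values (TMM) method, and CPM is compared between samples for a gene, not between genes. The 20 most abundant genes took 13.6 to 14.2% of the counts in C70 cells at day 2 and 18.2 to 19.4% at day 7. The replicate 1 library of vehicle cells at day 7 stood apart from the other 3 of its group, with a chi-square per degree of freedom of 39.8 to 46.7 against them, where other replicate pairs of these 4 groups gave 2.65 to 13.95. Of the 116 genes described, leaving it out changed the call of 7 differences from vehicle at day 7, 5 vehicle changes, 6 interactions and 2 C70 changes, and values without it are given where the text uses such a call. The defining white adipocyte markers were all present in the table, whereas markers of endothelial cells were absent (0 of 8 in the table) and macrophages were represented by 2 of 12 (Cd68 and Cd14), whose summed level did not exceed 10.1 CPM in any library of these 4 groups. Of the skeletal muscle markers 1 of 9 was in the table, at 3.48 to 5.39 CPM at day 2 and 35.3 to 50.9 CPM at day 7 over both treatments. Of the bone and cartilage markers 4 of 11 were, and summed to 419 to 431 CPM in C70 and 107 to 112 CPM in vehicle cells at day 2, and to 99.2 to 108 and 72.04 to 84.9 CPM at day 7, most of it from Spp1 in C70 cells at day 2. Of the brown and beige fat markers 3 of 14 were, at 159.7 to 175 and 188 to 208 CPM at day 2 and 337 to 383 and 485 to 569 CPM at day 7. Their part in the results was not tested.

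Between day 2 and day 7, 3300 genes rose (27.6% of genes tested) and 3257 fell (27.2%) in C70 cells, by an adjusted p under 0.05 and a log2 fold change beyond 0.32 in either direction. The median change over all genes was -0.01 on the log2 scale. Changes of more than 2-fold were seen for 948 genes that rose and 920 that fell. In vehicle cells 3182 genes rose (26.6%) and 3196 fell (26.7%) over the same days. The 2 comparisons share no sample. Of the 3300 genes that rose in C70 cells, 2540 (77% of these, and 79.8% of the vehicle list) also rose in vehicle cells, and 25 fell in vehicle cells. Of the 3257 that fell, 2494 (76.6%, and 78% of the vehicle list) also fell in vehicle cells, and 59 rose there. The difference between the 2 changes was tested itself, as an interaction term. The C70 change lay above the vehicle change for 1423 genes (11.9%) and below it for 1081 (9.04%). Scaling by library totals alone gave another split, with 2385 genes higher and 4651 lower in C70 cells, and 1104 above and 1394 below in the interaction. That scaling shifted the median of all genes by -0.17 in C70 cells and by -0.12 in vehicle cells, so changes are best read relative to the median.

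**Figure D1:**
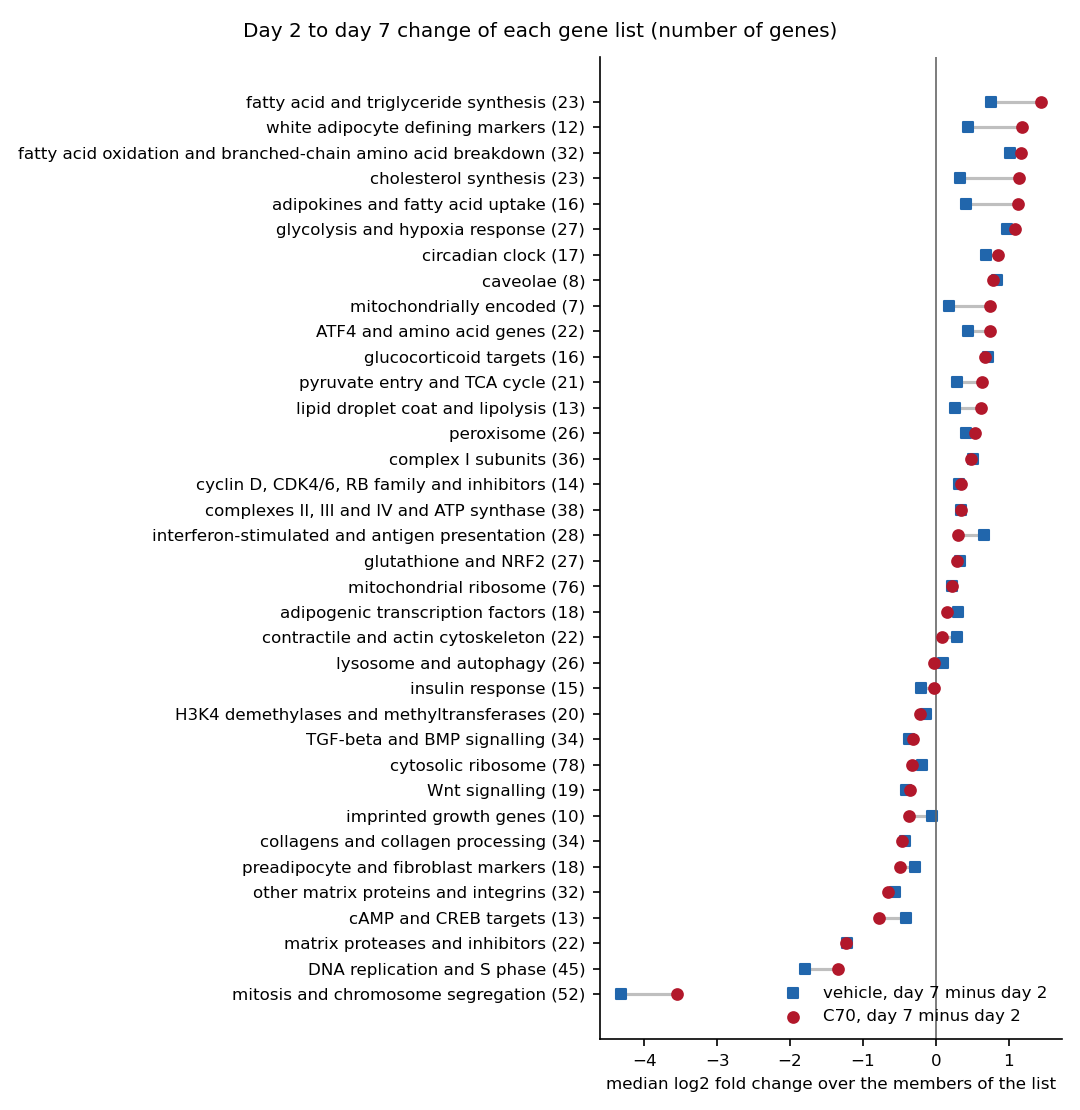
Each row is a gene list with its number of measured genes, and the horizontal axis gives the median log2 fold change from day 2 to day 7 over its members, in C70 cells (circles) and in vehicle cells (squares). Fatty acid and triglyceride synthesis moved furthest up in C70 cells (1.45 against 0.76 in vehicle) and mitosis furthest down (-3.55 against -4.32). The C70 medians of adipogenic transcription factors, contractile genes and mitochondrially encoded genes change sign under another scaling.

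The distance between C70 and vehicle cells was measured on each day, in samples that do not overlap. At day 2, 1621 genes were lower in C70 cells (13.6% of genes tested) and 2021 were higher (16.9%). At day 7, 580 were lower (4.85%) and 1707 were higher (14.3%). Genes that were low at day 2 mostly lost their call: 208 of the 1621 (12.8%, and 35.9% of the genes low at day 7) were still lower at day 7, 1347 (83.1%) were no longer called and 66 (4.07%) were higher. Genes that were high at day 2 were called again in a larger share: 1107 of the 2021 (54.8%, and 64.9% of the genes high at day 7) were still higher, 866 (42.9%) were not called and 48 (2.38%) were lower. The median difference of the low genes went from -0.49 at day 2 to -0.11 at day 7 on the log2 scale, and that of the high genes from 0.67 to 0.42. These shares depend on the fold threshold. With an adjusted p under 0.05 alone, 1079 of 3041 low genes (35.5%) were still lower and 1706 (56.1%) were not called, and 1683 of 3023 high genes (55.7%) were still higher. A gene not called at day 7 is not thereby shown to be equal to vehicle. Of the 1347, 759 rose more, or fell less, in C70 cells by the interaction test and 588 did not pass it. The interaction is the day 7 difference minus the day 2 difference, from the same libraries. Sorting genes by these differences therefore favours an interaction above 0, and the 759 are a description only.

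**Figure D2:**
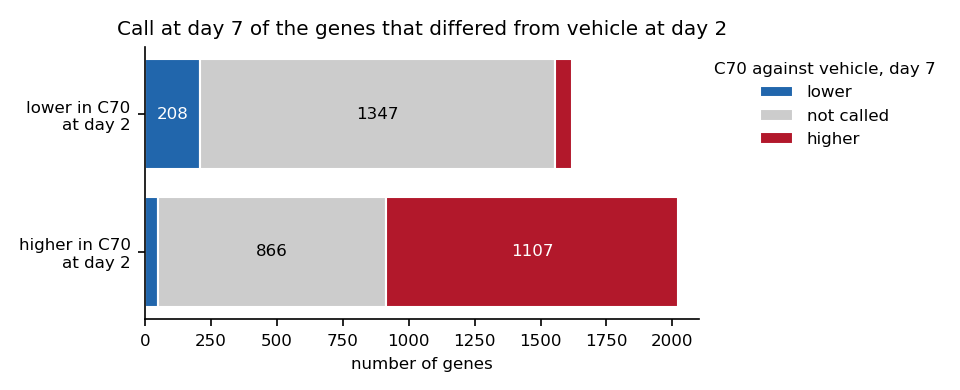
Bars count the genes that differed between C70 and vehicle cells at day 2 (upper bar, 1621 lower in C70; lower bar, 2021 higher), divided by their call at day 7. Most of the upper bar is grey (1347 not called), and the largest block of the lower bar is the genes still higher at day 7 (1107).

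Because the day 2 libraries enter both this sorting and the day 2 to day 7 change, genes were also sorted at day 1, by libraries that enter neither. At day 1, 933 genes were lower (7.8%) and 1631 higher (13.6%) in C70 cells. Of the 933 low genes, 384 (41.2%) had a C70 change above the vehicle change between day 2 and day 7, and 10 (1.07%) had one below it. Of the 1631 high genes, 592 (36.3%) had a C70 change below the vehicle change and 84 (5.15%) one above it. Among genes not called at day 1 these shares were 10.2% above and 5.1% below. For the low genes the median difference from vehicle was -0.44 at day 1, -0.42 at day 2 and -0.11 at day 7, and for the high genes 0.63, 0.68 and 0.36.

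Genes that define the white adipocyte rose in C70 cells, where 27.6% of all genes rose. None was called below vehicle at day 7, a count near the 4.85% of all genes that were. All 12 markers of the list rose between day 2 and day 7 in C70 cells, with a median change of 1.18 on the log2 scale, while 7 rose and 1 fell in vehicle cells, where the median was 0.44. The interaction was above 0 and called for 11 of the 12, against 11.9% of all genes. At day 2, 10 of them were below vehicle, against 13.6% of all genes, and none above. At day 7 2 were above, near the 14.3% of all genes, or 3 without vehicle replicate 1 of day 7. The 12 markers summed to 14841 to 16474 CPM in C70 cells at day 2 and to 32620.3 to 36116 CPM at day 7, with no overlap between days. The vehicle sums were 25361 to 26243 and 29636 to 35365 CPM, the latter up to 31304 CPM in the libraries other than replicate 1. Of 16 adipokine and fatty acid uptake genes, 12 rose and 2 fell in C70 cells (median 1.13, vehicle 0.42), with 11 below vehicle at day 2 and none at day 7. In these bulk samples, fewer adipocytes and less RNA of a marker per adipocyte cannot be told apart.

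Cfd encodes adipsin, a complement protease secreted by fat cells, and had the largest rise of the table (chr10:79890853-79892655, GRCm38). Its level was 24.8, 30.4, 26.04 and 25.1 CPM in the C70 libraries at day 2 and 3651, 4101, 3638 and 3409.7 CPM at day 7. The days were far apart and the change was 7.12 ± 0.11 (SE) on the log2 scale, adjusted p = 2.96e-29. Vehicle libraries held 45.5 to 49.1 CPM at day 2 and 2908 to 4274 CPM at day 7, so that Cfd stood at 56.6% of vehicle at day 2 and 113% at day 7. Its difference at day 7, 0.18 on the log2 scale, was not called, but was 0.34 and called, at 126% of vehicle, without vehicle replicate 1, which held the 4274 CPM. Adipoq, the adipokine adiponectin, measured 247, 298, 273 and 243 CPM at day 2 and 1742, 1793, 1636 and 1643 CPM at day 7 in C70 cells. It rose by 2.69 ± 0.078 and passed from 53.7% to 127% of vehicle, with C70 above vehicle by 0.35 and called at day 7, though the difference was 0.31, not called, without vehicle replicate 3 or 4. Slc2a4, the insulin-responsive glucose transporter GLUT4, went from 9.07, 11.8, 8.80 and 8.20 CPM to 219.6, 246, 235 and 231 CPM. It rose 24.6-fold and reached 89.00% of vehicle from 43.00%. Retn, which encodes the adipokine resistin, rose by 2.11 ± 0.091 in C70 cells and by 1.47 ± 0.097 in vehicle cells.

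Several markers were already high in vehicle cells at day 2 and rose afterwards in C70 cells. Fabp4, a fatty acid carrier of adipocytes, was 3492, 4033, 3895 and 3735 CPM at day 2 and 5874, 5900.4, 5643 and 5427 CPM at day 7 in C70 cells. In vehicle cells it was 7503, 7169.6 and 7798 CPM and then 7279, 5629, 5484 and 5200.5 CPM. It rose by 0.59 ± 0.071 in C70 cells and fell by 0.34 ± 0.076 in vehicle cells, an interaction of 0.94 ± 0.1 with adjusted p = 2.99e-08. The vehicle fall was -0.31 to -0.29, not called, without vehicle replicate 3 of day 2 or replicate 3 or 4 of day 7. Cidec, a lipid droplet protein that drives droplet fusion, measured 2101, 2477, 2288 and 2192 CPM and then 4069.7, 4542, 4330.3 and 3921 CPM in C70 cells, a rise of 0.90 ± 0.074. Its vehicle change was -0.10 ± 0.079 and not called, and the interaction was 0.99 ± 0.11. Lpl, lipoprotein lipase, rose by 1.09 ± 0.042 in C70 cells against 0.25 ± 0.045, not called, in vehicle cells. Cd36, which takes up fatty acids, rose by 1.23 ± 0.056 and stood at 74.4% of vehicle at day 2 and 126% at day 7. Angptl4, a secreted inhibitor of lipoprotein lipase, fell by 0.65 ± 0.06.

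Other genes with large rises in C70 cells also rose in vehicle cells. Aldh1l1, a folate enzyme, went from 1.80 to 2.99 CPM to 170.1 to 195 CPM in C70 cells, a rise of 6.44 ± 0.14 against 6.19 ± 0.15 in vehicle cells. Apoc3, an apolipoprotein of triglyceride-rich particles, rose by 6.27 ± 0.23 and 6.39 ± 0.25, and its interaction of -0.12 ± 0.45 was not called. Hp, which encodes haptoglobin, a hemoglobin-binding plasma protein also made by fat, was 128, 139.7, 136 and 141 CPM at day 2 and 9509, 10439.6, 9137 and 9738 CPM at day 7 in C70 cells. Its rise of 6.16 ± 0.12 was smaller than in vehicle cells (interaction -0.70 ± 0.15), and its difference from vehicle was 0.86 at day 2 and 0.16, not called, at day 7. Gpt, alanine aminotransferase, and Prodh, which starts proline breakdown, rose by 4.91 ± 0.084 and 5.65 ± 0.11, from 35.00% and 57.8% of vehicle to 89.4% and 97.4%. Mrap, an accessory protein of the ACTH receptor, was 29.7, 36.7, 29.5 and 26.7 CPM and then 259, 306, 279.5 and 247 CPM, and came from 35.4% to 81.4% of vehicle. Syn2, synapsin 2, overlaps Timp4 on the other strand, and came from 41.8% to 116% of vehicle. Spry1, an inhibitor of growth factor signalling, fell by 0.96 ± 0.062 in C70 cells and by 2.32 ± 0.065 in vehicle cells, and went from 50.3% to 129% of vehicle.

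Of the 18 adipogenic transcription factors, 8 rose and 3 fell in C70 cells, against 27.6% and 27.2% of all genes. The list's median was 0.15, which turned to -0.02 with library totals alone. Pparg, the master regulator of fat cell formation, was 103, 114, 119.5 and 113 CPM at day 2 and 422, 476, 430.2 and 412 CPM at day 7. It rose 3.87-fold, more than in vehicle cells (interaction 0.42 ± 0.071, adjusted p = 3.52e-05), and its difference from vehicle went from -0.57 ± 0.053 to -0.15 ± 0.047, the latter not called. Cebpa, its partner in the adipocyte program, rose by 1.14 ± 0.072 and came from 55.3% to 91.6%. Klf15, a glucocorticoid-responsive factor of mature adipocytes, rose 27.1-fold, from 4.64, 4.89, 5.15 and 5.07 CPM to 131, 149, 133 and 122 CPM. Cebpb, an early factor, changed by -0.16 ± 0.14 and Srebf1, which drives lipogenic genes, by -0.09 ± 0.052, neither called. Klf5, another early factor, fell by 2.09 ± 0.064 in C70 cells and by 2.00 ± 0.075 in vehicle cells, and stayed above vehicle on both days.

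**Figure D3:**
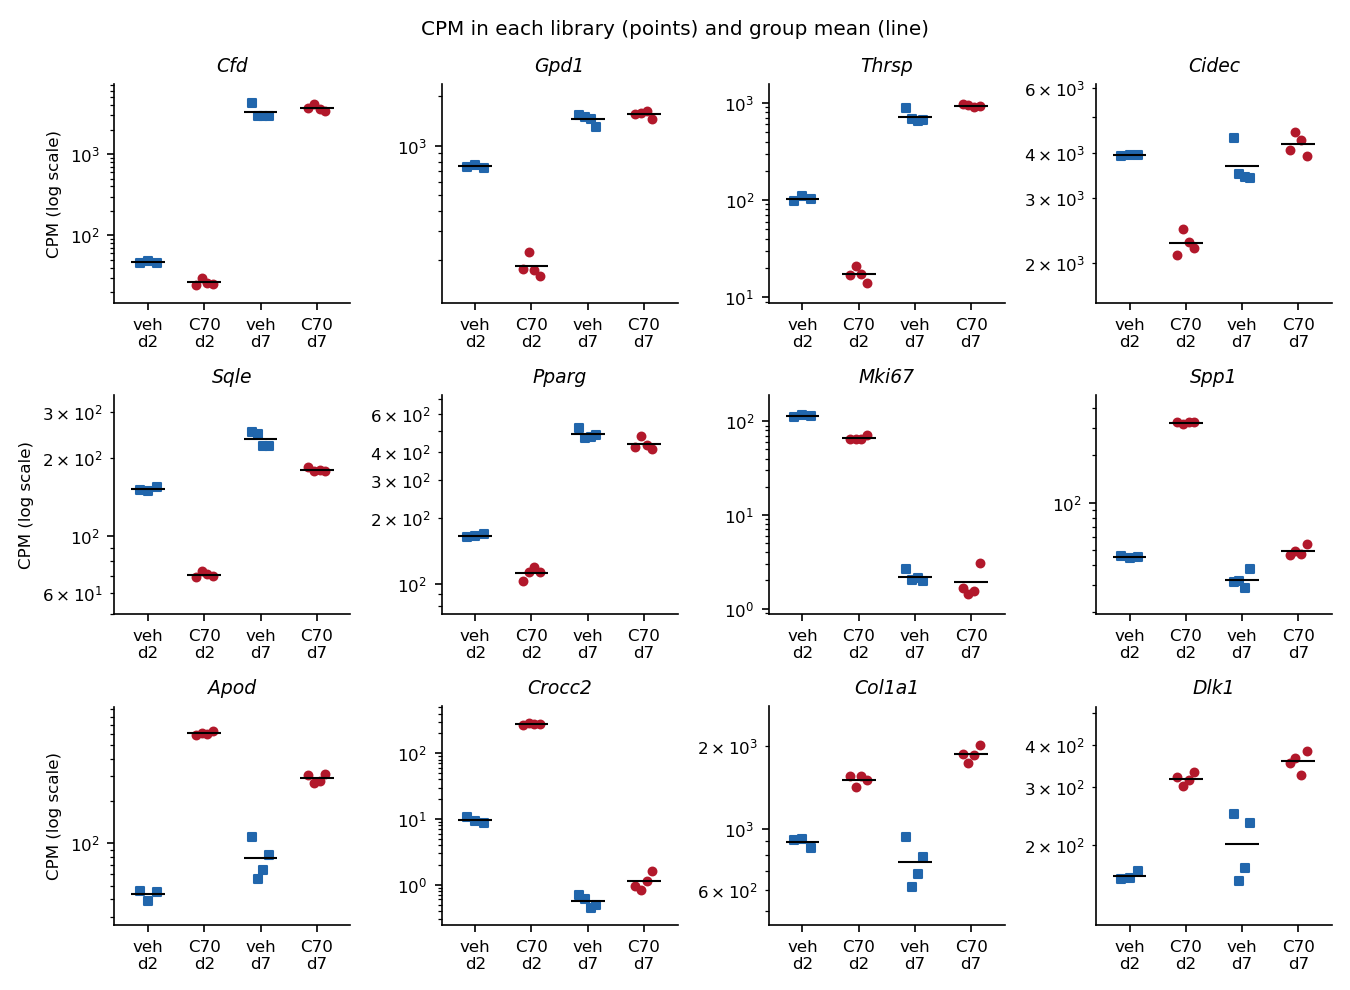
CPM on a log scale for 12 genes, each point a library and each line the mean of its group, in vehicle (squares) and C70 cells (circles) at days 2 and 7. In Cfd, Gpd1, Thrsp and Cidec every C70 library is below every vehicle library at day 2 and the C70 mean is above the vehicle mean at day 7, Sqle stays below, and Apod, Col1a1 and Dlk1 stay above.

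Fatty acid and triglyceride synthesis had the highest median late rise in C70 cells of the lists plotted. In C70 cells 19 of 23 members rose and 2 fell, with a median of 1.45 against 0.76 in vehicle cells and -0.01 over all genes in C70 cells. The interaction was called above 0 for 16 members and below 0 for 1, against 11.9% and 9.04% of all genes. At day 2, 16 members were below vehicle and 1 above, against 13.6% and 16.9% of all genes. At day 7 4 were below and 3 above, against 4.85% and 14.3%, so the 3 lay near the share of all genes. The median difference went from -0.67 to -0.02. Among all genes 27.6% rose in C70 cells. The number above vehicle at day 7 depended on single libraries, being 6 without C70 replicate 2 and 7 without vehicle replicate 2 of that day. Of the 18 members that vehicle cells had raised between day 0 and day 2, the median level in C70 cells was 62.1% of vehicle at day 2 and 98.2% at day 7.

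Thrsp, the thyroid hormone responsive SPOT14 protein that stimulates lipogenesis, gave the largest positive interaction of the table (chr7:97412938-97417730). Its level was 17.1, 21.1, 17.1 and 13.99 CPM in C70 libraries at day 2, when vehicle libraries held 97.1, 109.9 and 102 CPM. At day 7 it was 964, 942, 911 and 920.1 CPM in C70 and 885, 686, 656 and 659.8 CPM in vehicle libraries, so every C70 library was above every vehicle library. The C70 change exceeded the vehicle change by 2.95 ± 0.14 on the log2 scale, adjusted p = 5.24e-16. Gpd1, which makes glycerol 3-phosphate for triglycerides (chr15:99717515-99725005), was 176, 225, 174 and 159.9 CPM at day 2 and 1552, 1582, 1619 and 1463 CPM at day 7 in C70 cells. It had been at 24.6% of vehicle and ended at 107%, an interaction of 2.13 ± 0.12. Scd1, the desaturase that makes oleate, rose 17.9-fold, from 2003, 2353, 2125 and 1948 CPM to 39504, 35819, 38226 and 37338 CPM.

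Acly, which makes cytosolic acetyl-CoA, rose by 2.21 ± 0.084, to 737 to 1158 CPM in the 4 libraries, and was above vehicle at day 7 by 0.60 ± 0.08. Acaca, acetyl-CoA carboxylase, was above vehicle by 0.42 ± 0.077 at day 7 after -0.44 ± 0.084 at day 2. Fasn, fatty acid synthase, rose by 1.82 ± 0.081 in C70 and 0.60 ± 0.086 in vehicle cells, and its difference from vehicle at day 7, 0.26 ± 0.078, was not called, but was 0.35 and 0.33, called, without replicate 2 of C70 or of vehicle cells at day 7. For all 3 genes, replicate 4 was the highest and replicate 2 the lowest of the C70 libraries at day 7. Dgat2, which completes triglycerides, rose by 2.06 ± 0.07 and reached 81.2% of vehicle from 46.9%. Lpin1, a phosphatidate phosphatase, rose by 1.53 ± 0.059. Gpat3, a glycerol phosphate acyltransferase, fell by 1.04 ± 0.066 in C70 cells and by 1.69 ± 0.069 in vehicle cells.

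Of 13 lipid droplet and lipolysis genes, 10 rose and 1 fell in C70 cells, against 27.6% and 27.2% of all genes. None differed from vehicle at day 7, when 4.85% of all genes were lower and 14.3% higher. At day 2, 6 had been lower and 1 higher, against 13.6% and 16.9%. Pnpla2 and Lipe, the lipases that break down stored triglyceride, rose by 1.07 ± 0.05 and 0.62 ± 0.041. Bscl2, which encodes seipin of the droplet assembly site, rose by 1.73 ± 0.075. Plin1 rose by 0.48 ± 0.052 and Plin4 by 0.35 ± 0.051, both droplet coat proteins, and neither passed with library totals alone or quantile normalization. Plin3, the coat protein of nascent droplets, fell by 0.64 ± 0.038 in C70 cells and changed by 0.15 ± 0.041, not called, in vehicle cells. G0s2, an inhibitor of Pnpla2 that overlaps Lamb3 on the other strand, came from 39.1% to 102% of vehicle (interaction 1.38 ± 0.14).

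Most cholesterol synthesis genes rose in C70 cells, and 12 of 23 were below vehicle at day 7, each of which had also been below at day 2. Of 23 genes, 17 rose and 1 fell in C70 cells, with a median of 1.14, against 12 and 1 and a median of 0.33 in vehicle cells. Among all genes 27.6% rose in C70 cells and 26.6% in vehicle cells. The interaction was called above 0 for 17 and below 0 for 0 of the 23, against 11.9% and 9.04% of all genes. At day 2, 20 of the 23 were below vehicle with a median of -0.995, and at day 7 the median was -0.39, where 4.85% of all genes were below vehicle. None was above vehicle on either day. Summed over the list, C70 libraries held 2127 to 2328 CPM at day 2 and 3848 to 4201 CPM at day 7, and vehicle libraries 4686 to 4780.3 and 5032 to 5529.8 CPM. C70 and vehicle libraries did not overlap on either day. Of the 13 members that vehicle cells had raised by day 2, the median level was 43% of vehicle at day 2 and 75.3% at day 7.

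Sqle, squalene epoxidase of the sterol branch (chr15:59315077-59331192), was 69.1, 72.8, 70.9 and 69.98 CPM at day 2 and 184, 178, 179 and 178 CPM at day 7 in C70 cells, and 252, 248, 223 and 223 CPM in vehicle cells at day 7. It rose by 1.35 ± 0.058 and remained below vehicle by 0.39 ± 0.055, adjusted p = 9.58e-07. Hmgcs1, which condenses acetyl-CoA units early in the pathway, was 284, 301, 272 and 261 CPM at day 2 and 272, 259, 253 and 249 CPM at day 7, a change of -0.11 ± 0.056 that was not called. It was -0.79 ± 0.059 from vehicle at day 2 and -0.66 ± 0.056 at day 7. Stard4, which carries cholesterol between membranes, was likewise -0.78 ± 0.099 and -0.66 ± 0.1 from vehicle. Cyp51, lanosterol demethylase, rose by 1.14 ± 0.057 with a vehicle change of 0.02 ± 0.06, and its difference from vehicle shrank from -1.43 to -0.31, not called at day 7 but called without C70 replicate 1 (-0.35) or vehicle replicate 4 (-0.33) of that day. Pmvk, a kinase of the mevalonate branch, had the list's largest rise (2.67 ± 0.11), and Dhcr7, the last step to cholesterol, fell by 0.96 ± 0.057 in C70 and 1.07 ± 0.06 in vehicle cells.

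The promoter of Hmgcs1 is shown because the gene stayed low in C70 cells and because sterol-responsive promoters carry short elements bound by SREBP and NF-Y. It is the 250 bases before the RefSeq start on GRCm38.p6, chr13:119690101-119690350, plus strand, with capitals marking TCACNCCAC (sterol element core) and CCAAT, each searched on both strands (CCAAT reads ATTGG on the other strand).
Hmgcs1: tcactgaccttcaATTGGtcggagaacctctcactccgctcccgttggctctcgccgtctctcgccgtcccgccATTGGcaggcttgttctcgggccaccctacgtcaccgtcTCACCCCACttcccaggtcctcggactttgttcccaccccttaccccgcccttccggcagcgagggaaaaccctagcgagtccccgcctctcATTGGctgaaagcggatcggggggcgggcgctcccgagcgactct
It holds 1 sterol core match and 3 CCAAT matches, none overlapping another. Of the 23 cholesterol genes, 17 have a promoter in the reference, taken from 250 bases before to 50 after the start. CCAAT is in 16 of these (94.1%), against 43.6% of the 9007 matched genes of the table and 37.4% of all 32851 promoters. The exact letters of the sterol core are in 1 (5.88%), against 1.31% of table genes and 1.24% of all promoters. A match is only a description of the letters, and other forms of these elements were not searched.

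Many nuclear genes of the respiratory chain rose in both groups. Of 36 complex I subunits, 23 rose in C70 cells and none fell, with a median of 0.48 against 0.51 in vehicle cells. Of 38 subunits of complexes II, III and IV and ATP synthase, 21 rose and 1 fell, with a median of 0.35 in C70 and 0.35 in vehicle cells. These vehicle medians rest on replicate 1 of day 7, and without it were 0.39 and 0.25, against 0.50 and 0.36 in C70 cells, with 15 of the 38 risen in vehicle cells where 22 had with all libraries. Over all genes, 27.6% rose in C70 cells and 26.6% in vehicle cells. The interaction was called for 1 gene of the first list and 0 of the second. Of all genes 11.9% had an interaction above 0 and 9.04% one below 0. The median distance from vehicle was -0.32 and -0.31 for complex I, and -0.34 and -0.32 for the other complexes. At day 2, 18 and 20 members were below vehicle, and at day 7, 16 and 18, against 13.6% and 4.85% of all genes on these days. The day 7 counts rest on replicate 1 of vehicle cells at day 7. Without it 6 complex I genes and 0 of the others were below vehicle, and the medians were -0.19 and -0.20. An interaction above 0 was then called for 5 genes of each list, near the 11.9% of all genes. Leaving out another vehicle library of day 7 moved the interaction of complex I the other way, with 4 genes below 0 without replicate 2 and 3 without replicate 3. In the other complexes 3 genes were above 0 without C70 replicate 4 of day 7. These counts too lay near the shares of all genes. Among members that vehicle cells had raised by day 2, the median level in C70 cells was 80.1% of vehicle at day 2 and 80.5% at day 7 for complex I. The day 7 share includes vehicle replicate 1, without which the median distance of complex I was -0.19 where it had been -0.31.

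Ndufa9, a complex I subunit, was 134, 132, 135 and 133 CPM at day 2 and 318, 337, 303 and 301 CPM at day 7 in C70 cells, and 416, 314, 319 and 335 CPM in vehicle cells at day 7. The vehicle replicate 1 library was the highest of those 4. It rose by 1.24 ± 0.057, the largest rise of its list. Sdha, of succinate dehydrogenase, rose by 1.18 ± 0.035 and Atp5b, the catalytic subunit of ATP synthase, by 0.79 ± 0.046. Atp5g1, which encodes the ring subunit of ATP synthase, fell by 0.61 ± 0.074 in C70 cells and by 0.81 ± 0.077 in vehicle cells. Slc25a5, the ADP/ATP carrier, changed by -0.14 ± 0.048, not called, and Ppif, cyclophilin D of the permeability transition pore, fell by 0.60 ± 0.078. Of 76 mitochondrial ribosome genes, 28 rose and 3 fell in C70 cells and 28 rose and 5 fell in vehicle cells, with a median of 0.23 in each, where 27.6% and 26.6% of all genes rose. At day 7, 17 were below vehicle, against 4.85% of all genes. Without vehicle replicate 1 of day 7, 22 rose in vehicle cells (median 0.16) and 30 in C70 cells (median 0.24). An interaction above 0 was then called for 7, where 1 had one with all libraries, and 4 were below vehicle. The 7 and the 4 lay near the 11.9% and 4.85% of all genes.

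Genes encoded in mitochondrial DNA behaved otherwise, as far as the 7 in the table show, the other 6 of the 13 listed being absent from it. All 7 rose in C70 cells and 2 rose in vehicle cells, against 27.6% and 26.6% of all genes, with medians of 0.74 and 0.18. The first count was 6 without C70 replicate 3 or 4 of day 2 or replicate 1 or 2 of day 7, and the second was 1 without vehicle replicate 1 or 2 of day 2 or replicate 3 of day 7. Of the 7, 5 had an interaction above 0, against 11.9% of all genes. They summed to 48084 to 51939 CPM at day 2 and 66909 to 79788 CPM at day 7 in C70 cells, and to 47423 to 51035 and 52269.9 to 56313 CPM in vehicle cells. Their median distance from vehicle went from 0.00 to 0.47, and 5 of 7 were above vehicle at day 7, against 14.3% of all genes. The direction of the median depended on scaling, since under quantile normalization 3 rose and the median was -0.03. The largest rise was that of mt-Nd6 (1.28 ± 0.1), which lies opposite mt-Nd5, so that reads of the 2 may be mixed where counting ignored strand.

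Most enzymes that feed and run the TCA cycle or break down fatty acids and branched-chain amino acids rose in C70 cells. Among all genes 27.6% rose in C70 cells, 11.9% had an interaction above 0, and 13.6% were below vehicle at day 2. Counts below vehicle at day 7 were near the 4.85% of all genes. Of 21 pyruvate entry and TCA genes, 15 rose and 1 fell in C70 cells (median 0.63, vehicle 0.29). At day 2, 16 were below vehicle and at day 7, 1 was, Idh3a. Idh3a, the catalytic subunit of isocitrate dehydrogenase, was -0.36 ± 0.04 from vehicle at day 7, and its own fall of 0.33 ± 0.04 lies at the fold threshold and was -0.32 to -0.30, not called, without C70 replicate 1 or 2 of day 2, C70 replicate 3 or 4 of day 7, or vehicle replicate 1 of day 7. Of 32 breakdown genes, 31 rose and 1 fell in C70 cells (median 1.17, vehicle 1.02), and 14 had an interaction above 0. Those below vehicle numbered 19 at day 2 and 2 at day 7. Bcat2, the mitochondrial branched-chain aminotransferase, rose from 142, 157, 155 and 144 CPM to 1281, 1335, 1305 and 1197 CPM, 8.56-fold, and from 51.5% to 105% of vehicle. Cpt1a, which admits long-chain fatty acids to mitochondria, was the one that fell, by 1.49 ± 0.062, and stayed above vehicle at 148%. In the peroxisome list, 19 of 26 genes rose and 2 fell in C70 cells, against 27.6% and 27.2% of all genes. Gnpat, the first enzyme of ether lipid synthesis, rose by 1.49 ± 0.04 against 0.45 ± 0.043 in vehicle cells.

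**Figure D4:**
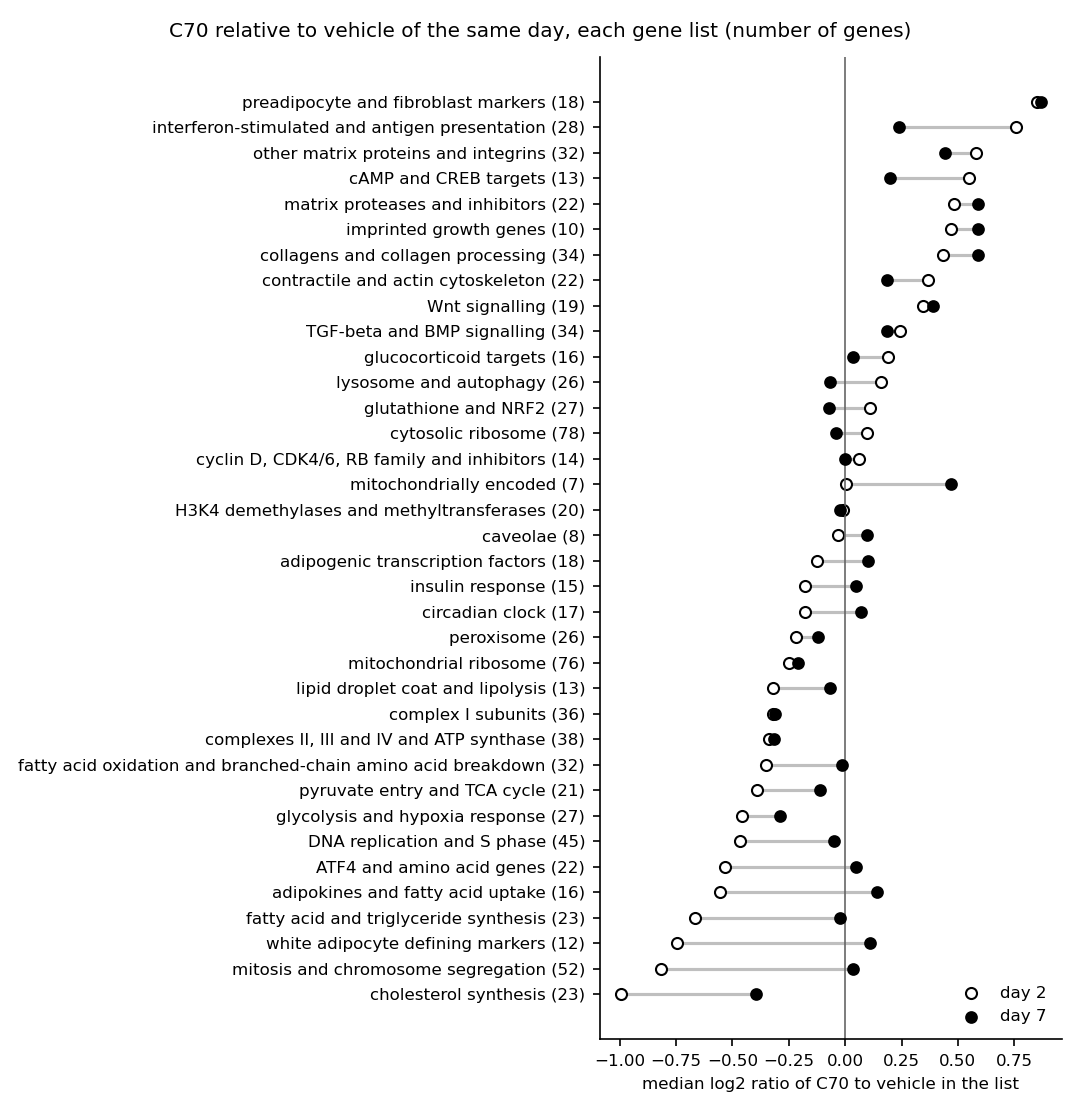
Each row is a gene list, and the horizontal axis gives the median log2 ratio of C70 to vehicle cells over its members, at day 2 (open circles) and day 7 (filled circles). White adipocyte markers go from -0.74 to 0.11, cholesterol synthesis goes from -0.995 to -0.39, and preadipocyte markers are at 0.85 and 0.87. Complex I is at -0.32 and -0.31, the latter -0.19 without vehicle replicate 1 of day 7.

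Most cell division genes fell steeply in both groups, from a higher level in vehicle cells. Of 52 mitosis and chromosome segregation genes, 49 fell in C70 cells and 52 in vehicle cells, with medians of -3.55 and -4.32, and 28 had an interaction above 0. At day 2, 49 were below vehicle with a median of -0.82. At day 7, 6 were above and 3 below, the 6 being near the 14.3% of all genes above vehicle. The median was 0.03, which was -0.13 without C70 replicate 4 of day 7 and -0.24, with 19 genes below, under quantile normalization. The list summed to 1069 to 1124 CPM in C70 libraries at day 2 and 246 to 257 CPM at day 7, and to 1782 to 1838 and 235 to 243 CPM in vehicle libraries. Of 45 DNA replication genes, 40 fell in C70 cells (median -1.34) and 42 in vehicle cells (median -1.80). Of the 45, 31 were below vehicle at day 2 and 2 at day 7, 1 of the 31 was above it at day 7, and 25 had an interaction above 0. Among all genes 27.2% fell in C70 cells, 11.9% had an interaction above 0, and 13.6% were below vehicle at day 2. For both lists, counts below vehicle at day 7 were near the 4.85% of all genes.

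Mki67, the proliferation antigen Ki-67, was 65.3, 63.9, 65.1 and 71.6 CPM in C70 cells at day 2 and 1.66, 1.42, 1.55 and 3.06 CPM at day 7. Replicate 4 of day 7 was the highest of its group. It fell by 5.09 ± 0.11 on the log2 scale, adjusted p = 7.13e-26. Vehicle libraries went from 110.0, 116 and 113 CPM to 2.62, 2.03, 2.11 and 1.97 CPM, and the interaction of 0.61 passed with all libraries but was 0.28, not called, without that C70 replicate, and 0.56 to 0.59, not called, without vehicle replicate 2, 3 or 4 of day 7. Cenpf, a kinetochore protein, fell by 5.38 ± 0.13, the largest fall of the mitosis list. Top2a, the topoisomerase that untangles chromosomes, went from 84.9, 89.1, 86.6 and 90.8 CPM to 5.15, 3.37, 2.44 and 3.69 CPM. It fell by 4.57 ± 0.11 in C70 cells and by 5.32 ± 0.11 in vehicle cells. Ccnb1 and Ccna2, the mitotic cyclins, fell by 5.19 ± 0.19 and 5.23 ± 0.18, to below 1 CPM in every C70 library. The replication genes Rrm2, of ribonucleotide reductase, and Mcm5, of the replicative helicase, fell by 4.42 ± 0.089 and 3.95 ± 0.11.

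Promoters of Top2a and Mki67 are shown because the mitotic genes fell together and many such genes are known to share a promoter element, the cell cycle homology region (CHR), often beside CCAAT. Both are the 250 bases before the RefSeq start on GRCm38.p6, minus strand, Top2a at chr11:99024190-99024439 and Mki67 at chr7:135716380-135716629. Capitals mark TTTGAA or TTCGAA (CHR) and CCAAT, searched on both strands, so that TTCAAA and ATTGG are the same matches read from the other strand.
Top2a: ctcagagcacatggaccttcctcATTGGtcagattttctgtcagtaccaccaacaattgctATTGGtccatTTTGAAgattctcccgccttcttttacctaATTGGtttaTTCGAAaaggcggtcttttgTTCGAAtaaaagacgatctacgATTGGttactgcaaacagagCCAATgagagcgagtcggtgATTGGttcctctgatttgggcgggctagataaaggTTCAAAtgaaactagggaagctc
Mki67: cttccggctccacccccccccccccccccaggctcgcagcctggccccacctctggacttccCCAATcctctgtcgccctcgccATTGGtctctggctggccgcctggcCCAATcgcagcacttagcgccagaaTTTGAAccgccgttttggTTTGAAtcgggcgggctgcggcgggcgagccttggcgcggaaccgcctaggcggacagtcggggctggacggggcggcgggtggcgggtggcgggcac
Top2a holds 4 CHR and 6 CCAAT matches and Mki67 holds 2 and 3, with no overlap between matches. In the window from 250 bases before to 50 after the start, a CHR match is in 32 of the 41 mitosis genes with a promoter in the reference (78%), against 16.1% of matched table genes and 19.2% of all promoters. CCAAT is in 31 of the 41 (75.6%), against 43.6% and 37.4%. Among 36 matched S phase genes a CHR match is in 7 (19.4%) and CCAAT in 22 (61.1%). These shares describe letters in the reference and are not binding sites measured here.

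D-type cyclin and RB pathway genes had mixed changes. In C70 cells 7 of 14 rose and 2 fell, against 27.6% and 27.2% of all genes. Ccnd1, cyclin D1, was 47.9, 42.9, 44.00 and 43.4 CPM at day 2 and 80.9, 67.5, 77.6 and 80.02 CPM at day 7 in C70 cells, and 14.6 to 14.9 and then 30.8 to 45.3 CPM in vehicle cells. It rose in both groups and stood at 302% of vehicle at day 2 and 218% at day 7, with no overlap between C70 and vehicle on either day. Cdkn2c, an inhibitor of CDK4 and CDK6, rose by 1.19 ± 0.055 and Cdk4 fell by 0.78 ± 0.057.

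Most genes of the preadipocyte and matrix lists were called above vehicle on each day. Of 18 preadipocyte and fibroblast markers, 10 fell and 0 rose in C70 cells, where 27.2% and 27.6% of all genes did. The median was -0.49, against -0.28 in vehicle cells. At day 2, 17 of them exceeded vehicle (median difference 0.85), and at day 7, 15 did (median 0.87), against a background of 16.9% and 14.3% of all genes. Their summed level was 2859 to 2980.5 CPM and then 2289.8 to 2584 CPM in C70 cells, and 1806 to 1890.1 and then 1281 to 1692 CPM in vehicle cells, without overlap between treatments. Dlk1, the preadipocyte factor Pref-1 (chr12:109452823-109463336), was 321, 301, 314 and 331 CPM at day 2 and 354, 365, 326 and 384 CPM at day 7 in C70 cells. Its change of 0.17 ± 0.086 was not called (adjusted p = 0.0691). In vehicle cells it was 159, 159 and 167 CPM and then 249, 157, 170.4 and 233 CPM, so every C70 library was above every vehicle library of its day. The distance was 0.97 ± 0.096 at day 2 and 0.82 ± 0.087 at day 7. Twist2, a mesenchymal transcription factor, fell by 1.20 ± 0.078, from 180.0% to 144% of vehicle.

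Of 34 collagen genes, 8 rose and 18 fell in C70 cells, and 7 rose and 18 fell in vehicle cells. The shares of all genes were 27.6% and 27.2% in C70 cells and 26.6% and 26.7% in vehicle cells. Both counts of rises lay near these shares. Above vehicle were 22 at day 7 after 20 at day 2, against 14.3% and 16.9% of all genes. The median distances were 0.59 and 0.43. Col1a1, the main chain of type I collagen, was 1556, 1414, 1556 and 1501 CPM at day 2 and 1872, 1742, 1864 and 2021 CPM at day 7 in C70 cells. Its change of 0.32 ± 0.08 was just under the fold threshold and was called, at 0.33 to 0.36, without C70 replicate 1 or 3 of day 2, C70 replicate 2 of day 7 or vehicle replicate 1 of day 7, while vehicle cells held 913, 915 and 852 CPM and then 935, 615, 685 and 788 CPM. The distance from vehicle widened from 0.75 ± 0.088 to 1.31 ± 0.081 (interaction 0.56 ± 0.12, adjusted p = 0.000494). Col3a1, of type III collagen, fell by 0.53 ± 0.053 in C70 and 0.52 ± 0.057 in vehicle cells and stayed at 186% and then 184% of vehicle. Lox, the collagen cross-linking enzyme, rose by 1.27 ± 0.055 in C70 and 2.00 ± 0.062 in vehicle cells. Plod2, a lysyl hydroxylase of collagen, fell by 2.45 ± 0.068.

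Among 32 other matrix and integrin genes, 19 fell in C70 cells and 21 were above vehicle at day 7, after 22 at day 2. The shares of all genes were 27.2% that fell, and 14.3% and 16.9% above vehicle at days 7 and 2. Fn1, fibronectin, fell from 4655, 3992, 4532 and 4549 CPM to 1531, 1447, 1673 and 1761 CPM and stayed above vehicle at 165%. Tnc, tenascin C, fell by 4.34 ± 0.11, and its excess over vehicle at day 7, 0.28 ± 0.16, was not called. Itga7, a laminin-binding integrin chain, rose by 2.25 ± 0.054. Of 22 matrix proteases and inhibitors, 15 fell and 2 rose in C70 cells (median -1.23, vehicle -1.22), and 15 and 15 were above vehicle at days 2 and 7. Mmp13, a collagenase, went from 103, 115, 87.9 and 93.1 CPM to 5.41, 4.02, 3.75 and 4.06 CPM. It fell by 4.52 ± 0.15 in C70 cells and 5.57 ± 0.19 in vehicle cells, and so was further above vehicle at day 7 (1.38 ± 0.28) than at day 2 (0.33 ± 0.12).

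**Figure D5:**
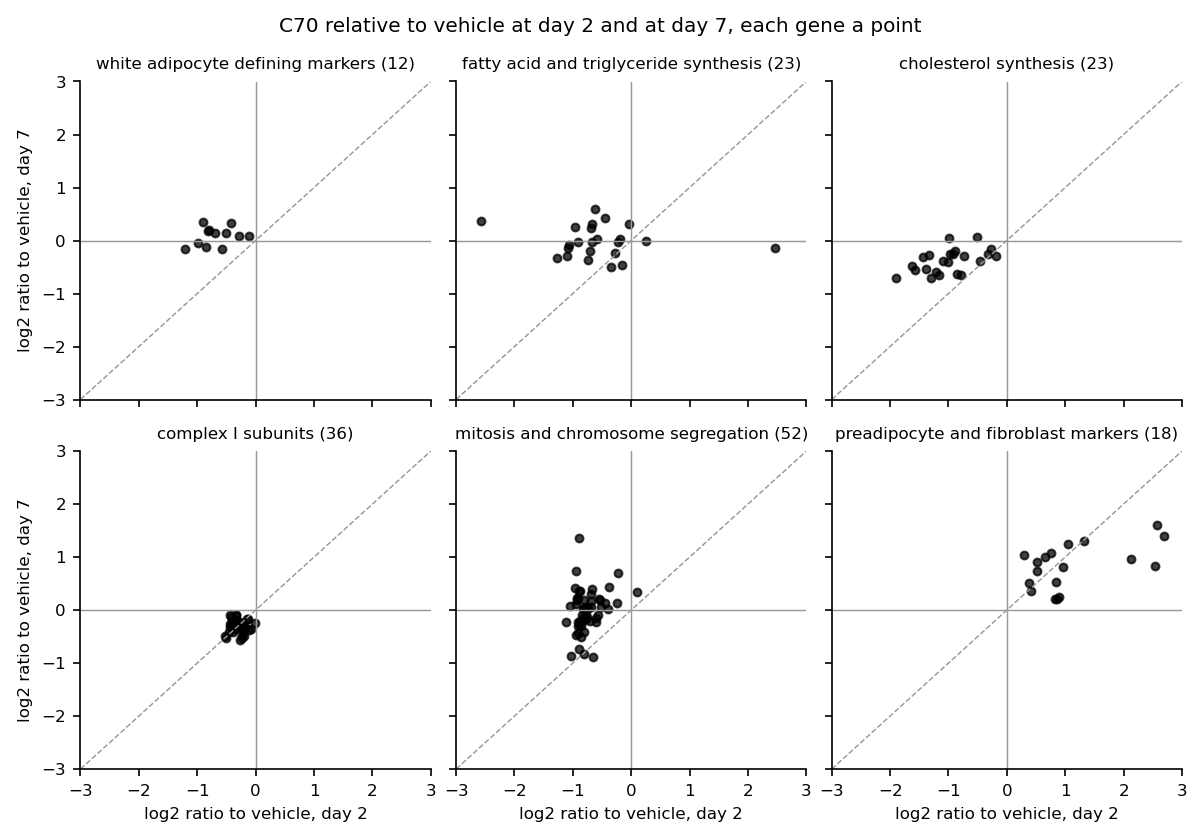
Each point is a gene, placed by its log2 ratio of C70 to vehicle at day 2 (horizontal) and at day 7 (vertical), in 6 lists. The dashed line marks an equal ratio on both days. Median ratios at day 7 are 0.11 for white adipocyte markers, -0.39 for cholesterol synthesis, -0.31 for complex I (-0.19 without vehicle replicate 1 of day 7) and 0.87 for preadipocyte markers, and 0.03 for mitosis, which is -0.13 without C70 replicate 4 of day 7 and -0.24 under quantile normalization.

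A set of genes that C70 cells held far above vehicle at day 2 fell by day 7, and several were among the strongest negative interactions. Crocc2, which encodes a protein of the ciliary rootlet family (chr1:93168725-93231072), was 271, 285, 273 and 278 CPM in C70 cells at day 2 and 0.965, 0.828, 1.13 and 1.64 CPM at day 7. In vehicle cells it was 10.8, 9.37 and 8.65 CPM and then 0.698, 0.62, 0.441 and 0.493 CPM. It fell by 7.91 ± 0.12 on the log2 scale in C70 cells and by 4.09 ± 0.2 in vehicle cells (interaction -3.81 ± 0.4, adjusted p = 1.01e-08), and the remaining excess at day 7 was 1.04 ± 0.31, or 0.80, not called, without C70 replicate 4 of day 7. Spp1, which encodes the secreted matrix protein osteopontin, was 328, 318, 326 and 325 CPM at day 2 and 46.05, 48.9, 47.1 and 54.6 CPM at day 7, and fell by 2.72 ± 0.068. It went from 719% to 152% of vehicle. Ptprv, a receptor-type tyrosine phosphatase, and Il1rl1, the receptor for interleukin 33, fell by 4.74 ± 0.11 and 5.84 ± 0.11 and stayed above vehicle at 182% and 188%. These day 7 differences of 0.84 and 0.89 were 0.57 without C70 replicate 3 and 0.76 without vehicle replicate 1, each then not called. Cd33, a sialic acid-binding receptor better known from myeloid cells, fell by 8.55 ± 0.15, the largest fall, to 0.158 to 0.532 CPM. Its interaction of -2.36 was -2.06 and not called without vehicle replicate 3 of day 7, where levels in vehicle cells were 0.0548 to 0.245 CPM. The myeloid markers Cd68 and Cd14 summed to 9.02 to 10.1 CPM in C70 cells at day 2, 4.02 to 5.90 CPM at day 7 and 3.07 to 4.14 CPM in vehicle cells at day 2, and their part in the Cd33 result was not tested. Ces1a, a carboxylesterase with close copies beside it in the genome, fell by 6.85 ± 0.17 and ended at 50.9% of vehicle, a difference of -0.97 that was called with all libraries but not, at -1.01 to -0.80, without C70 replicate 1, 2 or 3 or vehicle replicate 1 or 3 of day 7, although reads may be divided among the copies.

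The next 5 genes moved in opposite directions in the groups, each change being called. Eno3, the muscle form of enolase, fell in C70 cells from 57.3, 56.6, 55.8 and 56.2 CPM to 16.99, 15.3, 16.8 and 17.6 CPM and rose in vehicle cells from 4.86, 5.32 and 3.94 CPM to 16.1, 9.86, 10.3 and 11.4 CPM. The interaction was -3.08 ± 0.15, adjusted p = 5.24e-16. Aqp1, a water channel, fell by 2.04 ± 0.1 in C70 cells and rose by 0.65 ± 0.13 in vehicle cells. Syt12, of the synaptotagmin family, fell by 0.66 ± 0.056 and rose by 2.04 ± 0.073, and stood at 119% of vehicle at day 7, a difference that was not called. Pdk4, the kinase that shuts off pyruvate dehydrogenase, fell by 0.94 ± 0.063 in C70 cells, rose by 0.42 ± 0.069 in vehicle cells and ended at 97.5% of vehicle. Apod, the lipocalin apolipoprotein D, was 593, 615, 598 and 631 CPM and then 305, 268, 278 and 311 CPM in C70 cells and 45.7, 39.1 and 44.97 CPM and then 111, 55.9, 64.97 and 82.3 CPM in vehicle cells. It converged but stayed at 370.0% of vehicle, with no overlap. Tinagl1, a matrix protein, differed from these in that it changed by 0.11 ± 0.093, not called, in C70 cells while vehicle cells rose by 2.15 ± 0.12 and the day 7 difference of 0.04 ± 0.092 was not called.

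Genes still far above vehicle at day 7 among those high at day 2 included Dpt, Apod, Kif26b, Slit2 and Pcdh18. Dpt, the matrix protein dermatopontin, fell from 260.4, 234, 254 and 269.8 CPM to 115, 112, 112 and 122 CPM and was at 447% of vehicle at day 2 and 388% at day 7. Slit2, a secreted guidance protein, fell by 1.79 ± 0.093 in C70 and 1.75 ± 0.13 in vehicle cells, leaving 349% and then 340.0% of vehicle. Those far below vehicle, besides the sterol genes Stard4 and Hmgcs1, included Trim29, Mt1 and Fam162a. Mt1, a metallothionein, rose from 441, 485, 494 and 471 CPM to 1207, 1577, 1289.7 and 1292 CPM in C70 cells and stood at 57.00% and then 61.7% of vehicle. Trim29, a tripartite motif protein, rose by 2.26 ± 0.073 and reached 56.3%. Fam162a, a hypoxia-induced gene, rose by 1.32 ± 0.11 and stood at 64.3%.

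Ndrg1 and Cyp2f2 differed from vehicle at day 7 by more than at day 2. Ndrg1, a stress and hypoxia-responsive gene, was 20.97, 21.4, 21.9 and 22.4 CPM at day 2 and 61.9, 67.02, 52.5 and 78.5 CPM at day 7 in C70 cells, and 12.7, 14.4 and 13.6 CPM and then 174, 196, 198 and 205 CPM in vehicle cells. It went from 160.0% to 33.6% of vehicle (interaction -2.24 ± 0.13, adjusted p = 3.49e-14). Cyp2f2, a cytochrome P450, went the other way, from 86.9% to 260.0% of vehicle, at 272, 277, 299.7 and 231 CPM in C70 and 107, 103, 110.2 and 94.6 CPM in vehicle cells. Of 27 glycolysis and hypoxia genes, 22 rose in C70 cells and 2 fell (median 1.09, vehicle 0.97), against 27.6% and 27.2% of all genes. Below vehicle were 15 and 11 at days 2 and 7, against 13.6% and 4.85% of all genes. Bnip3, a mitophagy receptor induced by hypoxia, rose by 2.93 ± 0.074 and came from 50.1% to 83.8% of vehicle.

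Most targets of the integrated stress response factor ATF4 and amino acid genes rose in C70 cells, 16 of 22, against 27.6% of all genes. In vehicle cells 12 rose and 6 fell, against 26.6% and 26.7% of all genes. An interaction above 0 was called for 17, against 11.9% of all genes. The median distance from vehicle was -0.53 at day 2 and 0.05 at day 7. Nupr1, a stress-induced nuclear protein, rose from 10.8, 10.5, 11.1 and 11.01 CPM to 87.96, 98.7, 86.02 and 83.7 CPM and from 43.7% to 94.8% of vehicle. Among 28 interferon-stimulated and antigen presentation genes, 12 rose and 6 fell in C70 cells, against 15 and 3 in vehicle cells and 27.6% and 27.2% of all genes in C70 cells. Above vehicle were 19 at day 2, against 16.9% of all genes, and 6 at day 7, against 14.3%, or 13 without vehicle replicate 1 of day 7. H2-K1, a class I antigen-presenting molecule, rose by 0.73 ± 0.08 in C70 and 1.29 ± 0.09 in vehicle cells. Bst2, the interferon-induced tetherin, fell by 1.06 ± 0.11 and 0.36 ± 0.12, and the vehicle fall was -0.29 and -0.25, not called, without vehicle replicate 2 or 3 of day 7.

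Transcripts of the inhibitor's target enzymes did not pass the thresholds. Kdm5a was 207, 178, 185 and 196 CPM at day 2 and 155, 138, 172 and 162 CPM at day 7, Kdm5b 108 to 118 and 91.8 to 114 CPM, and Kdm5c 172 to 186 and 147 to 178 CPM. Their changes of -0.29 ± 0.083, -0.12 ± 0.05 and -0.15 ± 0.061 were not called, and none differed from vehicle on either day by the thresholds used. Kdm5a was called lower with library totals alone (-0.46), under quantile normalization (-0.36), without C70 replicate 2 of day 2 (-0.32) and without C70 replicate 3 of day 7 (-0.33). C70 acts on the enzymes, and these RNA levels do not report their activity. Of 20 H3K4 demethylase and methyltransferase genes, 1 rose (Setd1b, 0.78 ± 0.098) and 8 fell in C70 cells, against 27.6% and 27.2% of all genes. In vehicle cells 1 rose, also Setd1b, and 5 fell. The vehicle rise of Setd1b, 0.36, was 0.29, not called, without vehicle replicate 2 or 3 of day 7.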

How the data were processed

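Per the labels, RNA was measured in strand-specific libraries made with a kit for mRNA, whereas the study's text speaks of total RNA. The authors aligned reads with STAR (2.7.2a per the submitters' processing notes) to GRCm38 with Ensembl 97 genes. The authors deposited counts per gene under a name that calls them normalized. They are whole numbers with differing library totals, and were treated here as raw counts. The counting program and its strand setting are not given in the sources used here. The table appears to have been filtered on low levels before deposit. Every one of the 11959 had over 1 CPM in at least 20 of 29 libraries, so a gene on only in the 8 libraries of day 7 could not be in the table. Counts were analysed in edgeR 4.0.16 (R 4.3.3) with TMM scaling and quasi-likelihood tests on the means of 8 groups over all 29 libraries, with Benjamini-Hochberg adjustment across every gene in each comparison. A gene was called at an adjusted p under 0.05 and a log2 fold change beyond 0.32. Adjusted p-values in the text are from this test, and ± is a standard error derived from its F statistic. The procedure was tested on simulated data with 200 changed genes. Alternatives were DESeq2 1.42.0, limma 3.58.1, other normalizations, filters and thresholds, and leaving out each library.

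Genes named were 47 anchor genes, the called member of each list with the largest rise and fall in C70 cells, the 8 largest changes in each direction of the C70 change and of the interaction, and 6 genes for each way a day 2 difference went, among genes above the median level. Other genes named (Cd68, Cd14 and overlapping genes) were chosen after their values were seen. Gene lists, members and comparisons were chosen with earlier results of these data known. Positions are from GENCODE M21. Promoters of 9007 genes were matched by symbol to RefSeq, GRCm38.p6. The following named genes overlap an annotated gene on the other strand, so their counts are uncertain where counting ignored strand: Acaca, Aldh1l1, Bcat2, Bnip3, Bscl2, Cav1, Ccna2, Ccnd1, Cdk4, Cebpa, Cebpb, Cenpf, Ces1a, Cyp2f2, Cyp51, Dpt, Fam162a, Fkbp5, Fn1, G0s2, Gnpat, Gpat3, Gpd1, Hmgcs1, Hsd11b1, Itga7, Kdm5a, Kif26b, Lef1, Lipe, Lox, Mki67, Mt2, Ndrg1, Ndufa9, Plin4, Plod2, Pparg, Ppif, Prodh, Ptprv, Rora, Sdha, Setd1b, Slit2, Spry1, Srebf1, Syn2, Syt12, Timp4, Tnc, Top2a, Twist2, mt-Nd5, mt-Nd6. Pseudogenes of Ccnb1 and Slc25a5 may share reads with them. Not analysed here were Tbx1, Cidea, Ucp1 and Kdm5d. Some genes that the rule names are not reported here.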

Additional observations from a re-analysis of the deposited data

Results flagged for a closer look

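Within each group of 4 libraries, a library was singled out where the gap between it and the nearest other library took up more of the group's range than Dixon's 95% limit allows. Chance singles out about 1 in 20 groups, or 22.6 of the 453 tested here over genes, list sums and total counts. In all 44 were found, 21 of them in vehicle replicate 1 at day 7. C70 replicate 1 at day 2 lay above the other libraries of its group for Aldh1l1 (2.99 CPM) and Ces1a (60.5 CPM). C70 replicate 1 at day 2 lay below the other libraries of its group for Mt2 (178 CPM). C70 replicate 2 at day 2 lay above the other libraries of its group for Lipe (904 CPM), Gpat3 (225 CPM), the summed ATF4 and amino acid genes (2257 CPM) and the summed circadian clock genes (805 CPM). C70 replicate 2 at day 2 lay below the other libraries of its group for the summed other matrix proteins and integrins (19509 CPM). C70 replicate 3 at day 2 lay above the other libraries of its group for Cdk4 (205 CPM). C70 replicate 2 at day 7 lay above the other libraries of its group for the summed mitochondrial ribosome genes (3901 CPM) and the summed glucocorticoid targets (7709 CPM). C70 replicate 2 at day 7 lay below the other libraries of its group for Lpin1 (1047 CPM) and Col3a1 (2202 CPM). C70 replicate 3 at day 7 lay below the other libraries of its group for Klf5 (19.04 CPM) and Plin3 (88.6 CPM). C70 replicate 4 at day 7 lay above the other libraries of its group for Mki67 (3.06 CPM), Plod2 (25.8 CPM) and the summed imprinted growth genes (2161 CPM). C70 replicate 4 at day 7 lay below the other libraries of its group for Dgat2 (1146 CPM). Vehicle replicate 1 at day 7 lay above the other libraries of its group for Thrsp (885 CPM), Cidec (4385 CPM), Adipoq (1619.8 CPM), Cfd (4274 CPM), Retn (553 CPM), Acta2 (16.1 CPM), Hsd11b1 (210.5 CPM), Atp5b (2783 CPM), Bcat2 (1463 CPM), Cdkn2c (434 CPM), Mt2 (1439.8 CPM), G0s2 (267 CPM), Mrap (410.2 CPM), the summed lipid droplet coat and lipolysis genes (11322 CPM), the summed complex I subunits (6776 CPM), the summed complexes II, III and IV and ATP synthase genes (15640.1 CPM), the summed mitochondrial ribosome genes (5103 CPM) and the summed ATF4 and amino acid genes (4812 CPM). Vehicle replicate 1 at day 7 lay below the other libraries of its group for Srebf1 (112 CPM), Kdm5c (131 CPM) and the summed TGF-beta and BMP signalling genes (2184 CPM). Vehicle replicate 2 at day 7 lay above the other libraries of its group for Ccnb1 (0.845 CPM). Vehicle replicate 3 at day 7 lay above the other libraries of its group for Ces1a (1.18 CPM) and the total count (21433580). Vehicle replicate 4 at day 7 lay below the other libraries of its group for Prodh (202 CPM).

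The day 2 to day 7 change differed between C70 and vehicle cells by the interaction test for 1423 genes with a higher and 1081 with a lower change in C70 cells. Among the genes described, the change was called in opposite directions for Fabp4, whose C70 change exceeded the vehicle change by 0.94 on the log2 scale, and for Pdk4 (-1.36), Eno3 (-3.08), Syt12 (-2.70), Aqp1 (-2.69) and Apod (-1.93), whose C70 change was the lower.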

How the results depend on the processing

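With a fold change over 1.5, 2092 genes rose and 1896 fell in C70 cells, 1946 and 1917 in vehicle cells, and 618 and 516 were higher and lower in the interaction. Over 2-fold these were 948 and 920, 871 and 962, and 152 and 204. With no fold threshold, 1970 genes were higher and 1658 lower in the interaction. Of genes lower in C70 cells at day 2, those still lower, no longer called and higher at day 7 numbered 30, 518 and 10 over 1.5-fold and 1, 89 and 0 over 2-fold. With no fold threshold 1079 of 3041 (35.5%) were still lower and 256 higher. Of genes higher at day 2, 592 were still higher and 11 lower over 1.5-fold, and 183 were still higher, 344 not called and 0 lower over 2-fold. With no fold threshold 1683 of 3023 (55.7%) were still higher and 203 lower. Without the 25% of genes of lowest level, 129 were low on both days and 23 went from higher to lower. With library totals alone 42 went from lower to higher, and with quantile normalization 349 were low on both days and 36 went from lower to higher. Fewer genes pass a stricter fold threshold by its construction, and the cause was not tested for the normalizations.

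Without 1 library at a time, 3247 to 3393 genes rose and 3080 to 3279 fell in C70 cells, 3119 to 3313 and 3034 to 3237 in vehicle cells, and 1347 to 1482 and 1008 to 1166 were higher and lower in the interaction. Genes low on both days ranged from 159 to 231, and genes high on both days from 1050 to 1156. Same-numbered C70 libraries of days 2 and 7 had correlations of 0.0564, 0.132, 0.00598 and 0.0912 in their deviations. A library did not always correlate best with its own number. Such small values do not decide whether replicate numbers pair the days. With the replicate block 3297 genes rose and 3259 fell in C70 cells, and 1407 and 1064 were higher and lower in the interaction. Of the log2 fold changes of named genes, 6825 kept their direction and call over the settings, 85 lost and 48 gained a call. At this depth, genes under about 1 CPM at day 7, such as Crocc2, Cd33 and Ccnb1, rest on few counts.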

Other observations

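Of 16 glucocorticoid targets, 10 rose and 2 fell in C70 cells, and 12 rose and 1 fell in vehicle cells. Among all genes 27.6% rose and 27.2% fell in C70 cells, and 26.6% and 26.7% in vehicle cells. Fkbp5, a chaperone induced by dexamethasone, was 1151 to 1230.4 CPM at day 2 and 2033 to 2086 CPM at day 7 in C70 cells, 97.5% and 97.4% of vehicle. Hsd11b1, which regenerates active glucocorticoid and overlaps Lamb3 on the other strand, rose by 1.92 ± 0.077 and went from 193% to 136% of vehicle. Mt2, another metallothionein, rose by 2.01 ± 0.072 and stayed below vehicle at 65.5%. Of 17 circadian clock genes 14 rose in C70 cells and none fell, with medians of 0.86 in C70 and 0.69 in vehicle cells. Rora, a nuclear receptor of the clock, rose by 1.63 ± 0.091 and 0.84 ± 0.095. Of 13 cAMP and CREB targets 9 fell in C70 cells, against 27.2% of all genes. They summed to 750 to 802 CPM at day 2 and 564 to 612 CPM at day 7 in C70 cells. In vehicle cells the sums were 510 to 536 and 531 to 577 CPM. Nr4a1, an immediate early nuclear receptor, fell by 1.41 ± 0.07, and Gem, a small GTPase, by 2.72 ± 0.07.

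Of 78 cytosolic ribosome genes 40 fell in C70 cells (median -0.33), where 27.2% of all genes fell, and 22 in vehicle cells (median -0.18), a share near the 26.7% of all genes, or 67 in C70 cells with library totals alone. Their vehicle sums at day 7 were 15805 to 22940.3 CPM, and without replicate 1 of that group 35 fell in vehicle cells (median -0.28) and 37 in C70 cells (median -0.32). Of 8 caveola genes 6 rose in C70 and 5 in vehicle cells, and Cav1, the main caveola protein, was above vehicle at day 7 by 0.42 ± 0.05 after -0.00 ± 0.055 at day 2. Of 26 lysosome and autophagy genes 8 rose and 10 fell in C70 cells, not far from the shares of all genes (27.6% and 27.2%), and 12 had an interaction below 0, against 9.04% of all genes. Wnt pathway genes fell more often than they rose (10 and 1 of 19 in C70 cells, against 27.2% and 27.6% of all genes). At day 7, 11 were above vehicle, against 14.3% of all genes. Lef1, a Wnt transcription factor, rose by 0.46 ± 0.049 in C70 cells (0.28, not called, with library totals alone) and was above vehicle at day 7 after being below it at day 2. Of 34 TGF-beta and BMP genes 8 rose, near the 27.6% of all genes, and 17 fell in C70 cells, against 27.2% of all genes. Without C70 replicate 2 of day 2, 5 rose. Grem1, a BMP antagonist, fell by 2.71 ± 0.092 in C70 and 1.54 ± 0.095 in vehicle cells and went from 196% to 87.2% of vehicle. In the other lists, several of whose counts lie near the 27.6% of all genes that rose and 27.2% that fell, 6 of 15 insulin response genes rose and 3 fell in C70 cells, 8 of 22 contractile genes rose and 6 fell, 13 of 27 glutathione and NRF2 genes rose and 3 fell, and 3 of 10 imprinted growth genes rose and 5 fell. Acta2, smooth muscle actin, was 1.29 to 3.84 CPM at day 2 and 8.46 to 12.8 CPM at day 7 in C70 cells. Peg10, an imprinted retrotransposon-derived gene, fell by 2.95 ± 0.11 in C70 and 2.81 ± 0.11 in vehicle cells.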
